A study of Mus musculus with 284 samples.

Results

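Base excision repair removes single damaged or mispaired bases from DNA. A DNA glycosylase cuts out the base, an endonuclease opens the backbone at the empty site, a polymerase fills the gap and a ligase seals it, while poly(ADP-ribose) made at the break gathers the scaffold and the ligase. The long-patch form of the pathway borrows replication enzymes. In the skin the pathway meets oxidised bases, uracil and alkylated bases, and SIRT6, a chromatin-bound deacetylase and ADP-ribosyltransferase, has been tied to it in mouse cells. The 9 genes described here are the glycosylases Tdg, Ung, Ogg1 and Mutyh, the endonuclease Apex1, the break sensor Parp1, the scaffold Xrcc1, the ligase Lig3 and the polymerase Polb. They were given as a list of names, and each matched 1 of the 54247 gene IDs of the count table.

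The table holds expected counts of 284 single cells from chemically induced skin tumours of C57BL/6 mice. Mice labelled Sirt6-/- were KO1 (73 cells) and KO3 (54 cells), and mice labelled wild type were WT1 (69 cells) and WT2 (88 cells). All 4 mice had received DMBA once when 8 weeks old and then TPA for over 20 weeks, and all cells were sorted by CD34, CD49f and a YFP reporter (ROSA26-LSL-eYFP) switched on by Keratin14-Cre. The mouse is the replicate, with 2 mice per genotype, so an exact permutation test has 6 splits and cannot go below p = 0.333.

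Plates 1 and 2 held only cells labelled Sirt6-/- and plates 3 and 4 only wild-type cells, and the effects of plate and genotype cannot be told apart. Sirt6 itself was at 27.0 CPM (a gene's counts scaled to all counts of that mouse) in KO1 and 14.5 CPM in KO3, against 16.7 CPM in WT1 and 25.2 CPM in WT2. The genotypes overlapped in this level, and which part of the gene was deleted is not given in the sources used here. Whether the level goes against the label thus could not be settled, and the groups are called mice labelled Sirt6-/- and wild-type mice below. Total counts per cell lay between 523999 and 1684464. All 9 basal keratinocyte markers had counts, with summed levels of 29534 and 32747 CPM in the mice labelled Sirt6-/- and of 34744 and 44998 CPM in wild-type mice. Suprabasal markers summed to 876 and 1655 CPM in the mice labelled Sirt6-/- and to 950 and 1986 CPM in wild-type mice, with Flg at 0. Fibroblast markers summed to at most 1.7 CPM in any mouse, with Col1a2, Dcn, Lum and Pdgfrb at 0. Endothelial markers reached at most 3.2 CPM, with Kdr and Emcn at 0, and melanocyte markers 4.7 CPM, with Dct, Tyrp1 and Sox10 at 0. Immune markers summed to 3.8 and 12.7 CPM in the mice labelled Sirt6-/- and to 6.2 and 31.0 CPM in wild-type mice, with Cd3e at 0.

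Tdg, thymine DNA glycosylase, excises thymine from G:T mismatches and takes part in DNA demethylation, and it was the gene of the 9 with near-identical copies that held counts. Tdg lies at chr10:82629828-82650799 (GRCm38, plus strand), 1.0 Mb from Sirt6 at chr10:81621785-81627797. Its 3 intron-free copies are annotated elsewhere: Tdg-ps (chr15:82516311-82519278, plus strand), Gm9855 (chr10:42054113-42055306, minus strand) and Gm5597 (chr7:76244746-76245938, minus strand). Over the 1194 bases of the Tdg coding sequence, Tdg-ps differs at 14 positions, Gm9855 at 9, and Gm5597 at 8 with 1 base missing. At 22 positions at least 1 copy differs, and at 3 of them, T993C, T1056C and A1090G (position counted from the A of the start codon, Tdg base first), all 3 copies carry the same other base. A stretch of 100 coding bases (Tdg coding positions 1052 to 1151) shows how few letters tell the 4 genes apart. In Tdg, capitals mark the 5 positions at which any copy differs, and in a copy they mark its own differences from Tdg, so that Gm5597 carries only T1056C and A1090G. The sequences are those of GENCODE transcripts on GRCm38, from chr10:82648578-82648677 (plus strand) in a Tdg exon, chr15:82517535-82517634 (plus strand), chr10:42054156-42054255 (minus strand) and chr7:76244789-76244888 (minus strand).
Tdg: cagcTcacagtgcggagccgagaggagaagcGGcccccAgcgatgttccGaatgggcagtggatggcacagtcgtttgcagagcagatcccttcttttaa
Tdg-ps: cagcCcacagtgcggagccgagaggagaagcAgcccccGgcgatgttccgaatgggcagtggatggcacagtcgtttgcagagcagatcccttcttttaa
Gm9855: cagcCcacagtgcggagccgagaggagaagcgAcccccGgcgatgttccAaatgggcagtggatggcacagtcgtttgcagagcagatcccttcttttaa
Gm5597: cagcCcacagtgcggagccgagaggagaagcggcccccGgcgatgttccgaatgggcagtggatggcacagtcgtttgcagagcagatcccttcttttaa

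In the mice labelled Sirt6-/- nearly as many counts were put on the copies as on Tdg itself, and in wild-type mice few were. Tdg was at 110.8 CPM in KO1 and 108.3 CPM in KO3, against 203.5 CPM in WT1 and 92.3 CPM in WT2. Tdg-ps was at 59.9 and 54.8 CPM in KO1 and KO3, against 3.56 and 2.43 CPM in WT1 and WT2. Gm9855 was at 46.9 and 40.8 CPM in KO1 and KO3, against 5.02 and 2.26 CPM in WT1 and WT2. For both of these copies the genotypes were far apart, and the 2 mice of a genotype were close. Gm5597 went the other way, with 0.04 and 0.00 CPM in KO1 and KO3 against 4.55 and 2.98 CPM in WT1 and WT2.

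The copies held 49.1% of all counts of Tdg and its copies in KO1 and 46.9% in KO3, against 6.1% in WT1 and 7.7% in WT2. The mean was 48.0% ± 1.56 in the mice labelled Sirt6-/- and 6.90% ± 1.13 in wild-type mice (SD, n = 2 each). The difference of 41.1 percentage points was much larger than the spread between mice, with exact permutation p = 0.333, the smallest that 2 against 2 mice allow. The sum of Tdg and its copies was 217.7 CPM in KO1 and 204.0 CPM in KO3, against 216.6 CPM in WT1 and 100.0 CPM in WT2. By this sum WT1 lay with the 2 mice labelled Sirt6-/-, and WT2 alone was lower (exact permutation p = 0.667). Of the non-zero Tdg values 91.7% were not whole numbers, against 21.5% of all non-zero values in the table, and at most 0.4% for each of the 8 other genes. The origin of the different split was not tested.

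**Figure D1:**
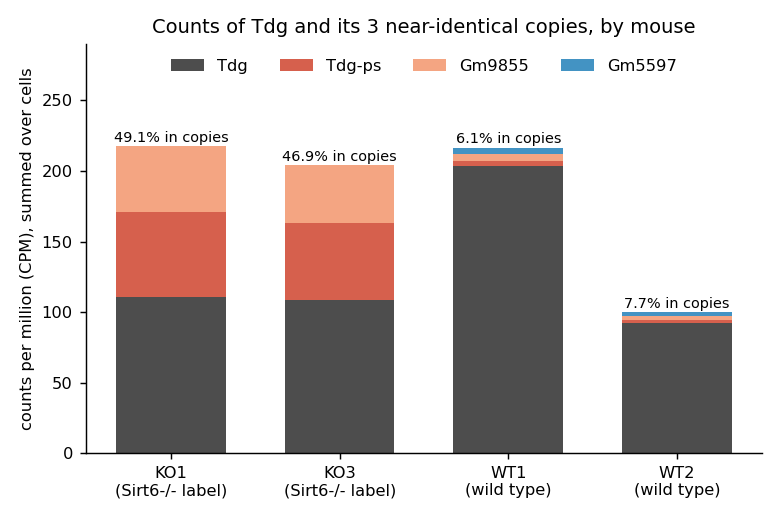
CPM put on Tdg, Tdg-ps, Gm9855 and Gm5597 (stacked bars, y axis), summed over the cells of each mouse (x axis). The copies hold 49.1% and 46.9% of the stack in KO1 and KO3, against 6.1% and 7.7% in WT1 and WT2, while the whole stack is lower in WT2 only.

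The split was also seen in single cells. Among cells with 10 or more counts over the 4 genes, the percentage put on copies had its lowest, median and highest value at 37.1%, 49.1% and 67.3% in the 64 cells of KO1, and at 14.7%, 46.9% and 58.8% in the 51 cells of KO3. In WT1 these were 0.0%, 5.3% and 16.7% (60 cells), and in WT2 0.0%, 6.9% and 80.5% (59 cells). A line at 20%, drawn after the values were seen, had above it 64 of 64 cells in KO1 and 50 of 51 in KO3, against 0 of 60 in WT1 and 4 of 59 in WT2. Counts of Tdg with none on a copy were found in 1 cell of KO1 and 0 cells of KO3, against 5 cells of WT1 and 10 of WT2.

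**Figure D2:**
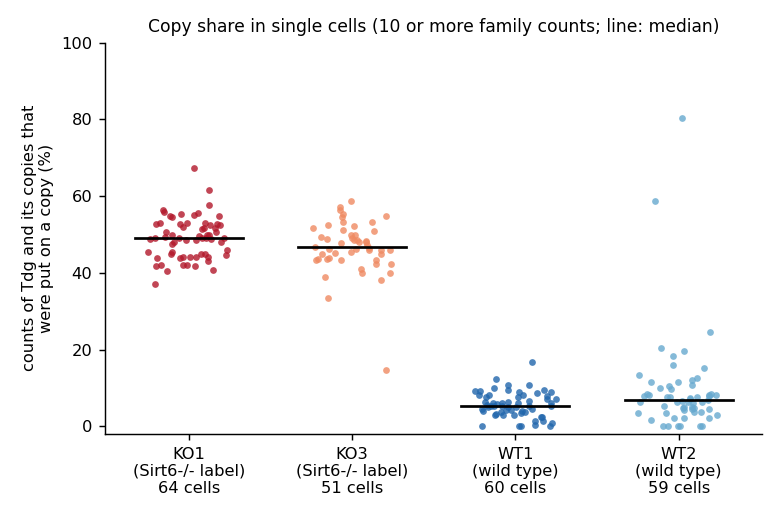
Percentage of the counts of Tdg and its copies that were put on a copy (y axis) in each cell with 10 or more such counts, by mouse (x axis; line, median). The cells of KO1 and KO3 lie around medians of 49.1% and 46.9%, those of WT1 and WT2 around 5.3% and 6.9%, with 2 WT2 cells above 50%.

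Within a mouse the percentage in copies differed little between plates or cell cycle classes. KO1 had 49.4% on plate 1 and 47.0% in its 8 cells on plate 2, which held KO3 with 46.9%. WT2 had 7.9% on plate 4 and 5.0% in its 7 cells on plate 3, which held WT1 with 6.1%. Within the cells outside S and G2/M it was 48.3% in KO1 and 44.4% in KO3, against 6.3% in WT1 and 7.8% in WT2. Further repair genes with pseudogene copies that held counts were set beside Tdg after these values were seen, with genes of low level left out. Pold3, a polymerase gene, has 1 such copy, which took 0.4% of the counts in each mouse. Pcna, the sliding clamp, has 1 such copy, which took 12.3% of the counts in both KO1 and KO3, against 11.9% in both WT1 and WT2. Hmgb1, a chromatin protein of long-patch repair, has 121 pseudogene copies, of which 118 held counts. Its copies took 50.2% and 52.5% in KO1 and KO3, against 48.9% and 48.8% in WT1 and WT2. For each of these genes the genotypes differed by far less than for Tdg.

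Tested across all 16567 genes with edgeR's quasi-likelihood test on sums per mouse, no gene passed an adjusted p of 0.05 between the genotypes (0%), and 848 genes (5.12%) had an unadjusted p under 0.05. By that test Tdg-ps had the smallest unadjusted p of the table (9.67e-05) and Gm9855 the fifth smallest (0.00113), both with an adjusted p of 0.809. Tdg-ps was higher in the mice labelled Sirt6-/- by 4.23 ± 0.32 and Gm9855 by 3.57 ± 0.48 on the log2 scale (SE). DESeq2, which called 150 genes (0.942%), called both copies higher, with adjusted p = 4.37e-27 and 4.39e-09, and Gm5597 lower, with adjusted p = 1.65e-04. Tdg itself differed by -0.45 ± 0.39 (SE, edgeR adjusted p = 0.977) as counted. It differed by 0.39 when its counts were summed with those of its copies (edgeR adjusted p = 0.979). Its sign thus turned with the way of counting, and it also turned with mice left out in turn (-0.88 to 0.17).

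Levels per length, in CPM per kb of merged exons, can be compared between genes. In that unit Tdg was highest at 24.0 ± 9.4 (mean and SD over 4 mice), without its copies. Xrcc1 followed at 14.4 ± 1.3, Apex1 at 13.1 ± 4.2 and Parp1 at 12.9 ± 1.1, and the mice of these 3 genes overlapped. Ung at 6.71 ± 2.16, Lig3 at 6.00 ± 0.45 and Polb at 5.82 ± 0.41 had lower means and overlapped one another. Ung (4.87 to 9.74 over the mice) also overlapped Apex1, whose lowest mouse was at 6.95. Mutyh at 1.80 ± 0.73 and Ogg1 at 1.25 ± 0.69 were lowest and overlapped. Lig3, Polb, Parp1 and Xrcc1 thus varied little between mice, while Tdg, Apex1, Ung, Mutyh and Ogg1 varied more.

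**Figure D3:**
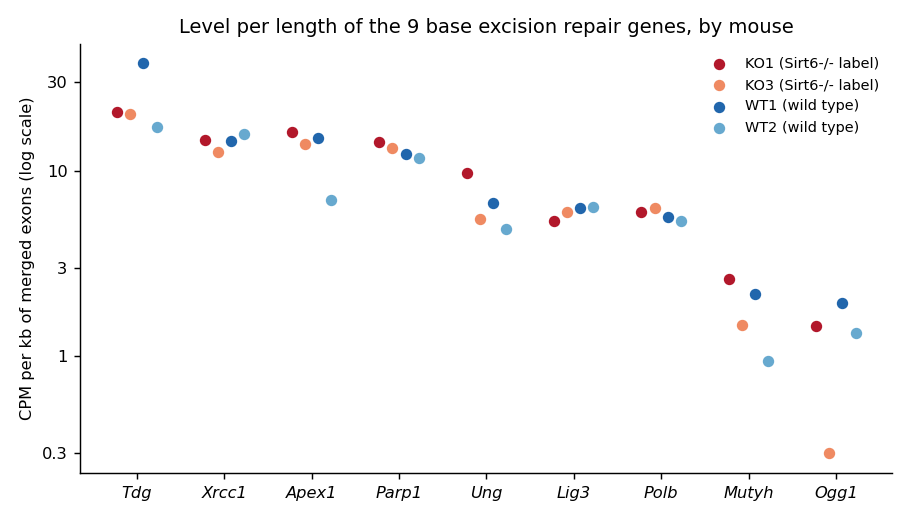
Level per length of each gene (y axis, CPM per kb of merged exons, log scale) with 1 point per mouse. Tdg lies on top, then Xrcc1, Apex1 and Parp1, then Ung, Lig3 and Polb, with Mutyh and Ogg1 lowest.

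The glycosylases other than Tdg were found in a minority of cells. Ung (chr5:114130386-114139323, plus strand), which removes uracil, had a count in 46.6% of cells of KO1 and 48.1% of KO3, against 42.0% of WT1 and 29.5% of WT2. Its level was 53.3 CPM in KO1 and 30.1 CPM in KO3, against 36.7 CPM in WT1 and 26.6 CPM in WT2, and the genotypes overlapped. A cell with Ung held a median of 71.0 counts of it. Smart-seq2 reads carry no molecular identifiers, so these are reads and not molecules.

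Ogg1 (chr6:113326972-113335068, plus strand), which removes 8-oxoguanine, had a count in 26.0% of cells of KO1 and 7.4% of KO3, against 29.0% of WT1 and 18.2% of WT2. Its level was 3.18 CPM in KO1 and 0.65 CPM in KO3, against 4.24 CPM in WT1 and 2.90 CPM in WT2, with KO3 the lowest mouse and KO1 among the wild-type mice. Its end overlaps 945 bases of Camk1 on the opposite strand, and Camk1 was at 2.91 and 0.00 CPM in KO1 and KO3, against 2.76 and 4.63 CPM in WT1 and WT2. No strand setting is given, so reads of the pair cannot be told apart there. Mutyh (chr4:116807723-116819440, plus strand), which removes adenine opposite 8-oxoguanine, had a count in 6 of 73 cells of KO1 and 6 of 54 of KO3, against 8 of 69 of WT1 and 4 of 88 of WT2. The 10 cells of highest count held 68.1% of all its counts, and its levels of 6.80 and 3.84 CPM in KO1 and KO3, against 5.67 and 2.49 CPM in WT1 and WT2, overlapped.

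Apex1 (chr14:50924968-50927139, plus strand), the main endonuclease at sites that lack a base, was found in most cells but at few counts, with a median of 20.0 counts per positive cell. It had a count in 91.8% of cells of KO1 and 88.9% of KO3, against 91.3% of WT1 and 68.2% of WT2. Its level was 23.1 CPM in KO1 and 19.9 CPM in KO3, against 21.4 CPM in WT1 and 9.88 CPM in WT2. WT2 was the low mouse, as for the Tdg sum, and its exact 95% interval for the share of cells (57.4% to 77.7%) lay below those of the 3 other mice except for a touch with KO3 (77.4% to 95.8%). After each cell was thinned to 500000 counts the share was 90.4% and 88.9% in KO1 and KO3, against 91.3% and 67.0% in WT1 and WT2. A low share in WT2 was not particular to Apex1: of the 9 genes, all but Ogg1 had their lowest share there. WT2 also had the fewest detected genes after thinning (median 5511, against 6002 in KO1, 6154.5 in KO3 and 6543 in WT1). Of its cells 65.9% were outside S and G2/M, against 46.6%, 24.1% and 34.8%. The part of these in the Apex1 values was not tested. Apex1 shares 1072 bases with Pip4p1 on the opposite strand, and Pip4p1 was at 7.75 and 6.74 CPM in KO1 and KO3, against 7.18 and 11.1 CPM in WT1 and WT2. How far reads of this stretch move the Apex1 values was not tested.

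Parp1 (chr1:180568924-180601254, plus strand), which senses strand breaks and makes poly(ADP-ribose), was at 75.6 CPM in KO1 and 69.8 CPM in KO3, against 64.8 CPM in WT1 and 62.3 CPM in WT2. Xrcc1 (chr7:24546289-24573440, plus strand), the scaffold that binds Lig3 and Polb, was at 85.4 and 73.6 CPM in KO1 and KO3, against 84.2 and 92.4 CPM in WT1 and WT2. Lig3 (chr11:82781108-82804274, plus strand), the ligase of the short-patch step, was at 39.1 and 43.8 CPM in KO1 and KO3, against 45.8 and 46.2 CPM in WT1 and WT2. Polb (chr8:22628126-22653435, minus strand), the gap-filling polymerase, was at 23.8 and 24.8 CPM in KO1 and KO3, against 22.3 and 21.0 CPM in WT1 and WT2. For Parp1 and Polb KO1 and KO3 both lay above WT1 and WT2, for Lig3 both lay below, and Xrcc1 overlapped. Such separation held for 3 of the 9 genes, and for 35.7% of all 16567 genes tested. Lig3 shares 1826 bases with Rffl on the opposite strand, and Rffl was at 14.5 to 21.0 CPM. Polb shares 1426 bases with the non-coding gene Gm26909 on the opposite strand, which was at 0.99 and 3.26 CPM in KO1 and KO3, against 0.75 and 0.93 CPM in WT1 and WT2.

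None of the 9 genes passed the edgeR test between the genotypes. Their log2 differences ranged from -0.94 ± 1.01 for Ogg1 to 0.44 ± 0.44 for Apex1 (SE), with a median of 0.13 beside -0.01 for all genes tested. Parp1 differed by 0.16 ± 0.20, Polb by 0.13 ± 0.26 and Lig3 by -0.19 ± 0.22 on the log2 scale, each within its error, with edgeR adjusted p of 0.995, 0.999 and 0.990. DESeq2 called none of the 9 genes. Of the 31 further repair genes, Neil2 fell below the filter, and none of the rest passed by edgeR. A cell held counts of a median of 5 of the 9 genes in KO1 and KO3, against 5 in WT1 and 4 in WT2.

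**Figure D4:**
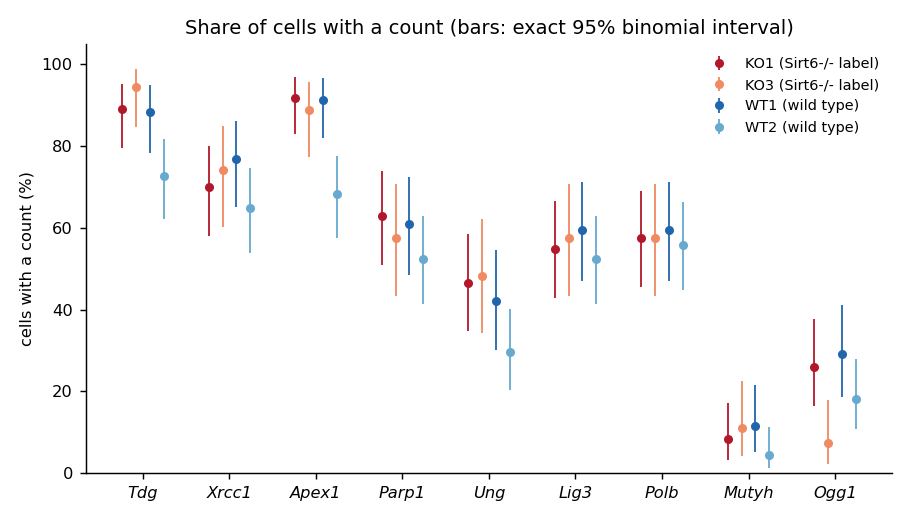
Percentage of cells with a count (y axis) for each gene, by mouse, with exact 95% binomial intervals that cover counting error only. The widest gaps to the next mouse are those of WT2 for Apex1, Tdg and Ung (68.2%, 72.7% and 29.5%), followed by that of KO3 for Ogg1 (7.4%).

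Of the 9 genes, Ung had the largest difference between cycling and other cells. Cells were put in an S, a G2/M or an other class from lists of 39 S-phase and 54 G2/M genes. Ung, Fen1, Pcna and Pold3 were taken out of the S-phase list beforehand, so a rise of these in S is no independent finding. The lists as used held none of the 9 genes or of the 31 further repair genes. A cell above the G2/M limit was put in G2/M whatever its S score. Counts were summed per mouse and class. The S, G2/M and other classes held 19, 20 and 34 cells in KO1, 9, 32 and 13 in KO3, 16, 29 and 24 in WT1, and 13, 17 and 58 in WT2. Ung in TMM-scaled CPM was 80.0 in S and 64.3 in G2/M, against 26.2 in other cells, in KO1. In KO3 it was 46.0 in S and 35.4 in G2/M, against 3.73 in other cells. In WT1 it was 73.4 in S and 33.2 in G2/M, against 9.07 in other cells. In WT2 it was 57.7 in S and 75.6 in G2/M, against 4.87 in other cells. Both cycling classes were thus above the other cells in 4 of 4 mice, with no overlap over all mice. How many of all genes show no such overlap was not computed.

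The log2 difference of Ung was 2.86 ± 0.48 for S minus other and 2.54 ± 0.48 for G2/M minus other (SE), with edgeR adjusted p of 0.0704 and 0.0560, just above the threshold. DESeq2 called it in both contrasts, with adjusted p = 1.53e-07 and 5.27e-06, where it called 4.17% and 5.31% of genes. In counts thinned to 500000 per cell edgeR called it as well, by 3.16 ± 0.48 and 2.69 ± 0.47 (adjusted p = 0.0301 and 0.0299). A further contrast set the cells above the upper quartile of G2/M score in each mouse against those up to its median score. Ung then differed by 0.46 ± 0.86 (edgeR adjusted p = 0.899). S cells were not kept out of that lower set. In KO3, where 32 of 54 cells were G2/M, the lower set also held G2/M cells. This value is thus not like for like with G2/M minus other. In thinned counts the share of cells with Ung was 66.7% to 81.2% in S and 41.4% to 70.6% in G2/M over the 4 mice, against 7.7% to 26.5% in other cells. The other cells also had fewer detected genes after thinning (medians of 5135 to 5761, against 5830 to 6895 in the cycling classes), and the part of that in the share was not tested.

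Parp1, like Ung, was above the other cells in 4 of 4 mice in G2/M. In TMM-scaled CPM it was 102 in S and 79.4 in G2/M, against 52.7 in other cells, in KO1, and 78.9 in S and 85.7 in G2/M, against 21.7 in other cells, in KO3. In WT1 it was 66.1 in S and 75.4 in G2/M, against 46.1 in other cells, and in WT2 47.9 in S and 94.0 in G2/M, against 59.0 in other cells. S was above other in 3 of 4 mice. The log2 differences of 0.74 ± 0.32 in S and 0.94 ± 0.32 in G2/M (SE) did not pass, with edgeR adjusted p of 0.514 and 0.319. The thinned share of cells with Parp1 was 55.6% to 84.2% in S and 62.5% to 88.2% in G2/M over the 4 mice, against 29.2% to 38.5% in other cells. The other cells also had fewer detected genes, as given for Ung, and the part of that in this share was not tested.

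The 7 other genes did not pass in either contrast, and their log2 differences lay between -0.33 ± 0.27 (Lig3, S) and 1.40 ± 1.55 (Mutyh, G2/M; SE). Tdg differed by 0.11 ± 0.20 in S and 0.28 ± 0.20 in G2/M. Over all genes edgeR called 35 for S minus other (0.251%) and 121 for G2/M minus other (0.869%), and 0 of the 9 genes in each. Ung was the 1 gene of 9 above the other cells in 4 of 4 mice for S, where 7.56% of all genes were, and Ung and Parp1 were the 2 of 9 for G2/M, where 12.1% were. At an unadjusted p under 0.05 edgeR had 2 of the 9 in each contrast, against 9.66% of all genes in S and 10% in G2/M. The difference of the class effect between the genotypes passed for 0 of the 9 genes in S and in G2/M, where 1 gene each of 13928 passed (0.00718%).

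**Figure D5:**
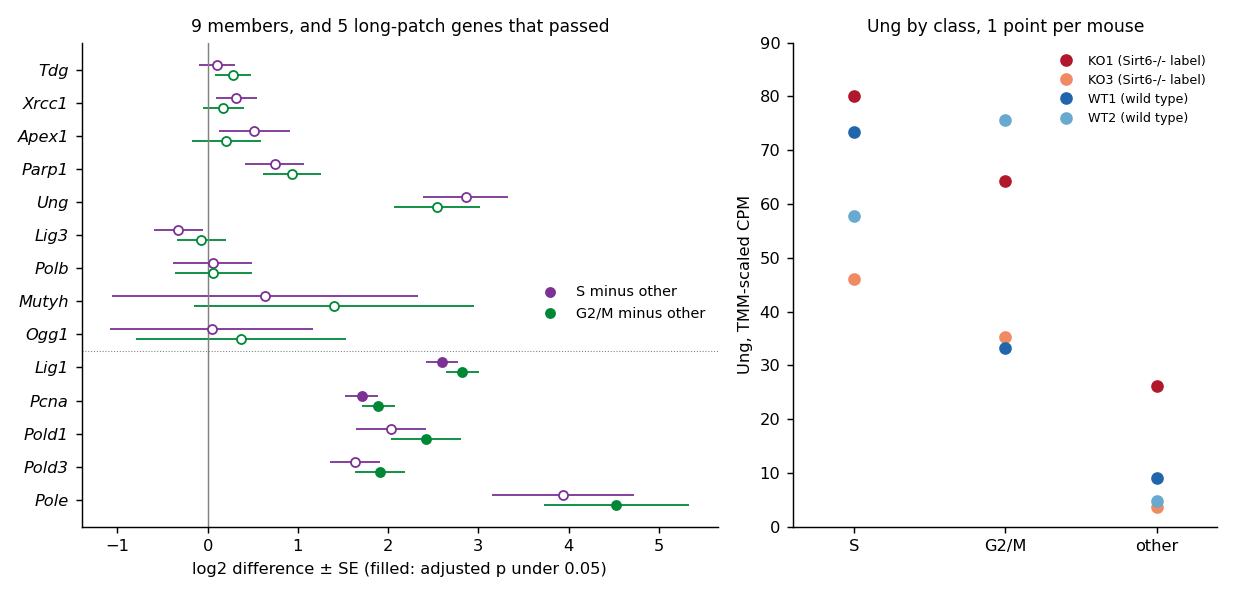
Left, log2 difference with SE (x axis) of the 9 genes and of 5 long-patch genes for S minus other and G2/M minus other, filled where the edgeR adjusted p is under 0.05. Right, Ung in TMM-scaled CPM (y axis) in S, G2/M and other cells (x axis), 1 point per mouse, with every S and G2/M point above every point of the other cells. The share of all genes that separate in this way was not computed.

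Part of long-patch repair, whose enzymes also copy DNA in S phase, rose in cycling cells. Of its 13 genes, 2 were higher in S and 5 in G2/M by edgeR, and none was lower, against 0.244% and 0.797% of all genes called higher. The G2/M class also took cells with a high S score, so these counts do not rank G2/M above S. Fen1, Pcna and Pold3 had been taken out of the S-phase list, so a rise of these is no independent finding. Lig1, the replicative ligase, rose in both, by 2.60 ± 0.18 in S and 2.82 ± 0.18 in G2/M (SE, adjusted p = 0.00178 and 0.00097). In KO1 its TMM-scaled CPM was 178 in S and 199 in G2/M, against 27.0 in other cells, and in WT2 256 in S and 315 in G2/M, against 30.1 in other cells. Pcna rose by 1.71 ± 0.18 in S and 1.89 ± 0.18 in G2/M (adjusted p = 0.0108 and 0.00406). In G2/M the polymerase genes Pold1, Pold3 and Pole rose by 2.42 ± 0.39, 1.91 ± 0.28 and 4.53 ± 0.81 (edgeR adjusted p = 0.0309, 0.0229 and 0.0467). The median log2 difference of the 13 was 1.63 in S and 1.89 in G2/M, against -0.08 and 0.01 for all genes tested, and that of the 9 members was 0.32 and 0.28. Without KO1 edgeR called 0 genes in either contrast, and the adjusted p of Lig1 was 0.0752 in S and 0.0513 in G2/M. Lig1 passed in both contrasts without KO3, WT1 or WT2 in turn. Pcna was lost in S without WT1 or WT2 and in G2/M without WT1, Pold1 and Pole in G2/M without WT1 or WT2, and Pold3 without any 1 of the mice (edgeR). Between cells above the upper quartile and cells up to the median of a score, none of the 5 passed in G2/M. In S, Pcna passed (edgeR adjusted p = 0.0443) and Lig1 did not (0.135). The lower sets were not cleared of cells in the other cycling class, and for G2/M that of KO3 also held G2/M cells.

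Among the 18 remaining genes of the 3 other repair lists none was called by edgeR in S or in G2/M. Neil3, a glycosylase of oxidised bases, is named here after its values were seen. In G2/M it was at 17.2 and 5.77 TMM-scaled CPM in KO1 and KO3 and at 16.4 and 16.3 in WT1 and WT2, against 0.42, 0.00, 0.00 and 0.00 in the other cells of those mice. Its edgeR adjusted p was 0.239. By level per length the highest of the 31 further repair genes were Hmgb1, Pold2 and Pcna, at 94.7 ± 12.5, 61.0 ± 12.5 and 56.5 ± 15.7 CPM per kb (SD over 4 mice), with means above that of Tdg.

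Correlations between the genes from cell to cell were computed for the 7 genes other than Ogg1 and Mutyh. For these 7 genes, detected in 20% or more of each mouse's cells, the 21 pairs had partial correlations within a mouse (log2(CPM + 1), given total counts and detected genes) whose means over 4 mice ranged from -0.09 to 0.19, with a median of 0.05. Within single mice the values ran from -0.31 for Tdg and Lig3 in WT2 to 0.43 for Tdg and Apex1 in KO1. Cells of a mouse share their source, and in sparse counts such weak values are no finding. Among 8474 genes with the same detection, those most like Ung were Mcm3, a part of the replicative helicase, at 0.51 (0.42 to 0.57 over the 4 mice), Uhrf1, which reads hemimethylated DNA, at 0.48, and Chaf1b, a histone chaperone, at 0.47. For Parp1 they were Rfc2 at 0.37, Cdc45 at 0.26 and Oxct1 at 0.26. The values of Cdc45 and Oxct1 lie within the 0.21 to 0.28 of the top genes of Apex1, Xrcc1, Lig3 and Polb. The level that the highest of 8474 correlations reaches among unrelated genes was not computed. Uhrf1, Chaf1b, Rfc2 and Cdc45 are on the S-phase list.

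The genes most like Tdg were 2 of its own copies. Tdg-ps had a partial correlation with Tdg of 0.96 in KO1 and 0.94 in KO3, against 0.26 in WT1 and 0.52 in WT2, and Gm9855 had 0.89 and 0.83, against 0.26 and 0.45. Reads that fit several of these genes cannot be told apart in the counts, and their part in the correlations was not tested. The third was Prep at 0.39. For Apex1 (Timm50, Hat1 and Srm), Xrcc1 (Yme1l1, Gm4316 and Poglut1), Lig3 (Gm4939, Stfa1 and Pim3) and Polb (Jak1, Cog5 and Pex16) the mean partial correlations were 0.21 to 0.28.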

How the data were processed

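The authors made the deposited expected counts per gene and cell with STAR and RSEM on mm10 (GRCm38), per the submitters' processing notes, with versions and strand setting not given in those sources. Each sample is 1 cell. GENCODE M21 on GRCm38 gave symbols (53857 of 54247 IDs matched). Copies were transcripts aligned at 90% identity or more over 300 bases (minimap2 2.31), and coding sequences were aligned with MAFFT 7.526. Expected counts were summed per mouse, or per mouse and class, rounded, and tested with edgeR 4.0.16 in R 4.3.3 (TMM, filterByExpr, quasi-likelihood test, two-sided, Benjamini-Hochberg over all genes tested, threshold 0.05), with mouse as a block for the classes. SE is the log2 difference over the root of F. DESeq2 1.42.0 and limma 3.58.1 were alternatives. Classes came from mean z-scores in counts thinned to 500000 per cell, split at the least within-class variance. G2/M was assigned first, and the S limit was found among the remaining cells. Of all cells 21 lay within 0.1 of the G2/M limit, and of those outside G2/M 13 within 0.1 of the S limit. No cell was left out and no doublet caller was run. Intervals are Clopper-Pearson at 95% and cover counting error only. In simulated counts the genotype fit recovered 57 of 100 genes changed by 3 on the log2 scale and 6 of 100 changed by 1, and the S fit 65 and 14. The text names all 9 members, list genes past the threshold or highest per length, and the 3 most correlated genes per member. The members and lists were chosen with earlier results of these data known. Nothing says the cells of a mouse came from more than 1 tumour.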

Additional observations from a re-analysis of the deposited data

Results flagged for a closer look

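For 3 of the 18 combinations of the 9 genes with S or G2/M, the value minus that of other cells was above 0 in both mice labelled Sirt6-/- and below 0 in both wild-type mice. Signs opposite in this way, in either order of the genotypes, were found for 9.86% of all 13928 genes tested in S and for 9.99% in G2/M, beside 2 and 1 of the 9 genes. In each of the 3 cases the test of the difference between genotypes did not pass in edgeR.

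For Ogg1, S minus other was 0.15 and 1.00 TMM-scaled CPM in KO1 and KO3, against -2.72 and -2.35 in WT1 and WT2. In KO1 the S and other values were nearly equal, at 3.21 and 3.06, and in KO3 the S value came from 1 of 9 cells, with 0 of 13 other cells holding a count. The fitted log2 difference between genotypes was 3.11 ± 2.57 (SE, edgeR adjusted p = 0.919).

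For Mutyh, S minus other was 1.09 and 8.06 TMM-scaled CPM in KO1 and KO3, against -0.87 and -2.19 in WT1 and WT2. Cells with a count were 1 of 19 in S and 1 of 34 in other in KO1, and 2 of 9 in S and 0 of 13 in other in KO3. They were 3 of 16 in S and 2 of 24 in other in WT1, and 1 of 13 in S and 1 of 58 in other in WT2. The fitted log2 difference was 5.08 ± 3.36 (SE, edgeR adjusted p = 0.911). For both genes the other cells of KO3 were at 0, so the fitted value depends on the prior count and is no bound.

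For Lig3, which had a count in 7 or more cells of each mouse in other and 11 or more in G2/M, G2/M minus other was 4.04 and 21.1 TMM-scaled CPM in KO1 and KO3, against -9.81 and -24.8 in WT1 and WT2. The log2 difference was 1.01 ± 0.47 (SE, edgeR adjusted p = 1.000).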

How the results depend on the processing

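No paired analysis of the genotypes was possible because the mice share only the number 1. None of the 9 genes was called between genotypes under any alternative run, and DESeq2 alone called genes there (150). DESeq2 called 581 genes for S and 725 for G2/M, with 1 member (Ung) in each. Thinned counts also called 1 member (Ung) in each, and 54 genes for S. Without the mouse block (no replicate block) 56 genes were called for S and no member. Cells above the upper quartile of a score, set against those up to its median (highest against lowest scores below), gave 13 called genes for S and 3 for G2/M. Without each mouse in turn, 0 to 9 genes were called for S and 0 to 85 for G2/M, with 0 for both without KO1. The S effect between genotypes called 0 genes without the filter. The difference in the percentage of counts on copies was 39.3 points in cells outside S and G2/M. Only 1 cell of KO1 and 0 of KO3 had whole Tdg values, so that alternative was not run. At 5 or more counts the mean share of cells was 52.8% for Parp1, 52.5% for Lig3 and 54.1% for Polb, and thinned it was 55.9% for Polb.

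Signs of small differences turned, none of them called. Between genotypes, Tdg was 0.35 by mean log2(CPM + 1) and 0.39 summed with copies, Xrcc1 0.01 by mean log2(CPM + 1), Mutyh -0.03 in thinned counts, and in cells outside S and G2/M Mutyh was -2.24 and Parp1 -0.50. Leaving out a mouse gave -0.88 to 0.17 for Tdg, -0.07 to 0.70 for Ung and -0.08 to 1.01 for Mutyh. In S, Ogg1 was -0.03 in thinned counts and -0.57 without the block, and Gm5597 0.39 by highest against lowest scores. Leaving out a mouse gave -0.07 to 0.33 for Tdg, -0.81 to 0.64 for Ogg1, -0.72 to 1.74 for Mutyh and -0.40 to 0.29 for Polb. In G2/M, Ogg1 was -0.05 without the block and -0.14 by highest against lowest scores, Polb -0.09 by highest against lowest scores, Lig3 0.08 in thinned counts and Gm9855 0.15 without the block. Leaving out a mouse gave -0.10 to 0.77 for Ogg1, -0.33 to 0.18 for Lig3, -0.16 to 0.20 for Polb and -0.29 to 0.16 for Gm9855. The cells-outside-S-and-G2/M runs, and all runs on the copy percentage, were added after the data were seen.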
